A study of Mus musculus with 65 samples.

Results

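Immediate early genes are the genes that a neuron switches on within minutes of being active, before any new protein has been made. The 34 genes described here are the measured ones among 37 listed by name: transcription factors of the AP-1, EGR and NR4A families, other inducible factors, effectors that act at the synapse or are secreted, and growth arrest and clock genes that respond in the same way. The rule for the list is a set of names and uses no threshold on values of these files, and the genes were followed in a table of 15469 genes from mouse cerebellum. Egr2, Egr3 and Ptgs2 were not analysed here.

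As background, calcium entering an active neuron drives kinases that act on factors already sitting at these genes, chiefly CREB, serum response factor and the MEF2 family. MEF2 proteins bind DNA as dimers of paralogous subunits, and MEF2A and MEF2D are the main members in cerebellar granule neurons. Binding by MEF2 near several of these genes, such as Jun, Nr4a1 and Arc, has long been described in neurons and muscle.

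RNA, given in CPM (reads of a gene scaled to the reads of its library), was measured in cerebella of P22 (postnatal day 22) female C57BL/6 mice by sequencing. The groups were MEF2A cKO (conditional knockout of MEF2A), MEF2A Control, MEF2D cKO, MEF2D Control, MEF2AD cKO (conditional knockout of both genes) and MEF2AD Control, with 4 libraries each, so that each knockout line had its own Control. The acetylated histone H3K27ac, found at active promoters and at active enhancers, was profiled by ChIP-seq in female mice of the same 6 genotypes with 3 libraries each, and the age of these mice is not given in the labels. MEF2A and MEF2D binding was given as 1 peak list for each factor. The series holds ChIP-seq of MEF2A in MEF2A Control, MEF2A cKO and MEF2D cKO, and of MEF2D in MEF2D Control, MEF2D cKO and MEF2A cKO. Which of these libraries each list was called from is not given in the labels. The labels do not name the Cre driver, the deleted exons or the cells in which deletion took place, and they do not say whether libraries came from separate animals, so p-values measure the spread between libraries, which may be technical. The titles of the RNA libraries carry the word Rotarod, a test in which mice walk on a turning rod, while the sheet that holds their values is named a baseline. Whether the mice had run is not given in the sources used here.

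Libraries held 9178139 to 23160475 RNA reads. Mef2a RNA fell in both lines in which it was targeted, to 87.9 ± 8.6 CPM (SD, n = 4) in MEF2A cKO against 222.2 ± 11.2 CPM in MEF2A Control, and to 93.6 ± 5.6 CPM in MEF2AD cKO against 189.1 ± 5.4 CPM in MEF2AD Control. Mef2d RNA was not lower where it was targeted, at 367.6 ± 13.2 CPM in MEF2D cKO against 323.4 ± 23.1 CPM in MEF2D Control, and 370.6 ± 12.04 CPM in MEF2AD cKO against 297.8 ± 16.8 CPM in MEF2AD Control. A read count taken over all exons need not drop when only some are deleted, so RNA did not check the Mef2d label. Gabra6, a GABA receptor subunit of mature granule neurons, was detected at 614 to 1396 CPM in group means, and it was called higher in each of the 3 knockouts. Of the other 8 granule neuron markers limma called 0 higher in any line and 1 lower, the glutamate transporter gene Slc17a7 in MEF2D cKO (717.5 ± 36.3 CPM against 869.9 ± 49.6 CPM in MEF2D Control; limma adjusted p = 0.0255), where the interneuron marker Slc32a1 was also lower (114.8 ± 6.9 CPM against 146.8 ± 8.6 CPM; limma adjusted p = 2.54e-04). The summed level of choroid plexus markers varied widely within groups, for example between 28.4 and 1530 CPM among MEF2AD cKO libraries, and none of 306 relations between a member and the summed markers of 9 cell types passed a permutation test with Benjamini-Hochberg adjustment.

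MEF2 peaks lay near a larger share of these genes than of genes at large. A MEF2D peak overlapped or lay within 5 kb of 14 of the 34 genes (41.2%), against 822 of 14841 genes with a known position (5.54%). A MEF2A peak did so at 6 of the 34 (17.6%), against 123 of 14841 genes (0.8288%). The 6 genes with a MEF2A peak were Jun, the 3 NR4A receptor genes Nr4a1, Nr4a2 and Nr4a3, Npas4 and Ier2, and each of the 6 also held a MEF2D peak. MEF2D without MEF2A was found at Fos, Fosb, Atf3, Crem, Nfil3, Homer1, Trib1 and Per1. Within 100 kb of a start, the numbers were 19 genes for MEF2D (55.9%, against 16.98% of the 14841 genes) and 9 for MEF2A (26.5%, against 2.79%), and Fos, Fosb and Csrnp1 were the additions to MEF2A. These shares are descriptions of peak lists that carry no score and no value per library. The genes were chosen with earlier results of these data known, and MEF2 binding near some of them had been described before. The larger shares are thus not an independent test. Arc, Bdnf, Egr1, Egr4, Junb, Jund, Fosl2, Ier5, Btg2 and 6 other members held no peak of either factor within 100 kb.

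Bound promoters of the list mostly held the MEF2 motif at or close to the start of transcription. In RefSeq promoter windows of GRCm38.p6 (250 bases before to 50 after a start), found for 25 of the 34 genes, 5 genes had a window that overlapped a MEF2D peak, and 4 of these held the MEF2 motif, which reads pyrimidine, T, A, a run of A or T, T, A, purine and was searched on both strands. By comparison, the motif stood in 37.3% of the 110 windows under a MEF2D peak and in 3.19% of all 32851 windows. The 4 windows are shown because they join a peak to letters that the factor is known to read, with the motif in capitals and each sequence written 5′ to 3′ on the strand of its gene.
Jun promoter, chr4:95052173-95052472, minus strand: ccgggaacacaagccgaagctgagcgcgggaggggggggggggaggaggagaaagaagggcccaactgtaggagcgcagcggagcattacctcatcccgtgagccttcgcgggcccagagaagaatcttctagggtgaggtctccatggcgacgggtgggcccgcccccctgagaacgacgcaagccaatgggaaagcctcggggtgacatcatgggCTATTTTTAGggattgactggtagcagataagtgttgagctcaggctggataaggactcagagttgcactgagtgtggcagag
Nr4a2 promoter, chr2:57123954-57124253, minus strand: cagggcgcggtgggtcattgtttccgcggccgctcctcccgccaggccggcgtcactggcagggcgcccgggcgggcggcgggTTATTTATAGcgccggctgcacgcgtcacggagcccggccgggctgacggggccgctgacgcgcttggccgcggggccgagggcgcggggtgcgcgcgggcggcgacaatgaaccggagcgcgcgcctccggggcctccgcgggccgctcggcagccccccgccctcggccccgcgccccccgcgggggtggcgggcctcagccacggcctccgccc
Atf3 promoter, chr1:191183284-191183583, minus strand: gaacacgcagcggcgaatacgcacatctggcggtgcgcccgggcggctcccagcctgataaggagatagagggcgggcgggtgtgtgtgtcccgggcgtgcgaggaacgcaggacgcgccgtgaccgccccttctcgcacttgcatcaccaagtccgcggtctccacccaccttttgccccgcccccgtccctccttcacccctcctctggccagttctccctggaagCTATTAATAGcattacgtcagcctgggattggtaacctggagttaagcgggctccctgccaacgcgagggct
Per1 promoter, chr11:69099902-69100201, plus strand: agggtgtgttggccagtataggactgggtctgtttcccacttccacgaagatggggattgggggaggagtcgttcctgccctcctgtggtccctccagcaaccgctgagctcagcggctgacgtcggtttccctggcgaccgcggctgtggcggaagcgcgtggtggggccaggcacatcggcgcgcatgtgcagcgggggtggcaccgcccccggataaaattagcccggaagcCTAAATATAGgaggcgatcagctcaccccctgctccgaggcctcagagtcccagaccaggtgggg
The motif began 33 bases before the start in Jun, 167 before it in Nr4a2, 22 before it in Atf3 and 15 before it in Per1. Only the Jun window also overlapped a MEF2A peak. A sequence match is not by itself a site, and Inhba, which encodes a subunit of the secreted protein activin, held the motif in its window with no peak.

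The CREB site is the other element for which these promoters are known, and its half-site was common among them. TGACG, searched on both strands, stood in 23 of the 43 windows of the members, spread over 18 of the 25 genes, against 20.8% of all windows. Members have up to 7 windows each, so windows of 1 gene are not independent. Nr4a1 and Fos are shown because they had the highest SD of log2(CPM + 1) within groups, with TGACG or its reverse complement CGTCA in capitals.
Nr4a1 promoter, chr15:101266596-101266895, plus strand: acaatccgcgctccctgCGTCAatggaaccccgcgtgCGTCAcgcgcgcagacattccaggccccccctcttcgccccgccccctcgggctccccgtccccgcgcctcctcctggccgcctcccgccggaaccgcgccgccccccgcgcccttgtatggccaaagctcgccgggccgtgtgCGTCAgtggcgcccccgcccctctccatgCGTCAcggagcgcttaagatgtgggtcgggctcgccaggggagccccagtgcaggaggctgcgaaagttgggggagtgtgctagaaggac
Fos promoter, chr12:85473640-85473939, plus strand: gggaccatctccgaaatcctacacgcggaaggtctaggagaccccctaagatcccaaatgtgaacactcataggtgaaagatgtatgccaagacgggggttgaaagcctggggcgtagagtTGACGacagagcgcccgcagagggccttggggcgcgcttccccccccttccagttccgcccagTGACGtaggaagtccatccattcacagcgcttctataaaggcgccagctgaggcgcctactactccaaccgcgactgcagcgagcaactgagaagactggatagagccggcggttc
Nr4a1 held 4 such half-sites and Fos held 2, the nearest to the start 40 and 66 bases before it. The whole palindrome TGACGTCA stood in windows of Btg2 and Maff (1.79% of all windows). The AP-1 site TGANTCA stood in windows of Bdnf and Csrnp1 (7.81% of all windows). The serum response element core stood in no window of a member (1.63% of all windows). With so low a share over all windows, its absence from 43 windows does not show that these genes lack the element. Sequence farther upstream was not searched, and members such as Egr1, Arc and Ier2 had no window.

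In a limma fit of the 6 group means, 3 calls were made among the 34 genes over the knockout lines. In MEF2AD cKO, Jun and Ier5 fell and 0 of the 34 were called higher, while limma called 2.42% of all genes (1.16% higher, 1.26% lower). In MEF2D cKO, Ier5 fell and 0 were called higher, beside 4.93% of all genes (2.59% higher, 2.33% lower). In MEF2A cKO limma called 0 of the 34, as did edgeR and DESeq2 on recovered reads, beside 0.284% of all genes by limma. With no adjustment, 6 of the 34 had p under 0.05 in MEF2AD cKO, 6 in MEF2D cKO and 1 in MEF2A cKO, against 9.94%, 19% and 7.74% of all genes. With counts of 2, 1 and 0 in the fit of group means, the shares of members called cannot be told apart closely from those of all genes. That fit did not pair same-numbered libraries. With replicate number as a block, limma called 7 of the 34 in MEF2AD cKO, 9 in MEF2D cKO and 0 in MEF2A cKO, beside 4.09%, 8.95% and 0.75% of all genes. In the MEF2D and MEF2AD lines not every pair of same-numbered libraries deviated together, so the block may not be a true pairing. The median log2 fold over the 34 genes was 0.01 in MEF2AD cKO, -0.06 in MEF2D cKO and 0.03 in MEF2A cKO, against 0.00 over all genes in each line. Fold changes here are on log2(CPM + 1), which understates changes of genes at a few CPM. The 95% interval of a typical member reached 0.38 to either side of its estimate, before adjustment over all genes. After adjustment, a call for such a member needed a larger change. Gadd45b in MEF2AD cKO (log2 fold -0.60, SE 0.18; limma adjusted p = 0.0995) did not pass. Neither did Trib1 in MEF2D cKO (log2 fold -0.60, SE 0.20; limma adjusted p = 0.0933). In bulk tissue, fewer cells of a type and less RNA per cell cannot be told apart.

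**Figure D1:**
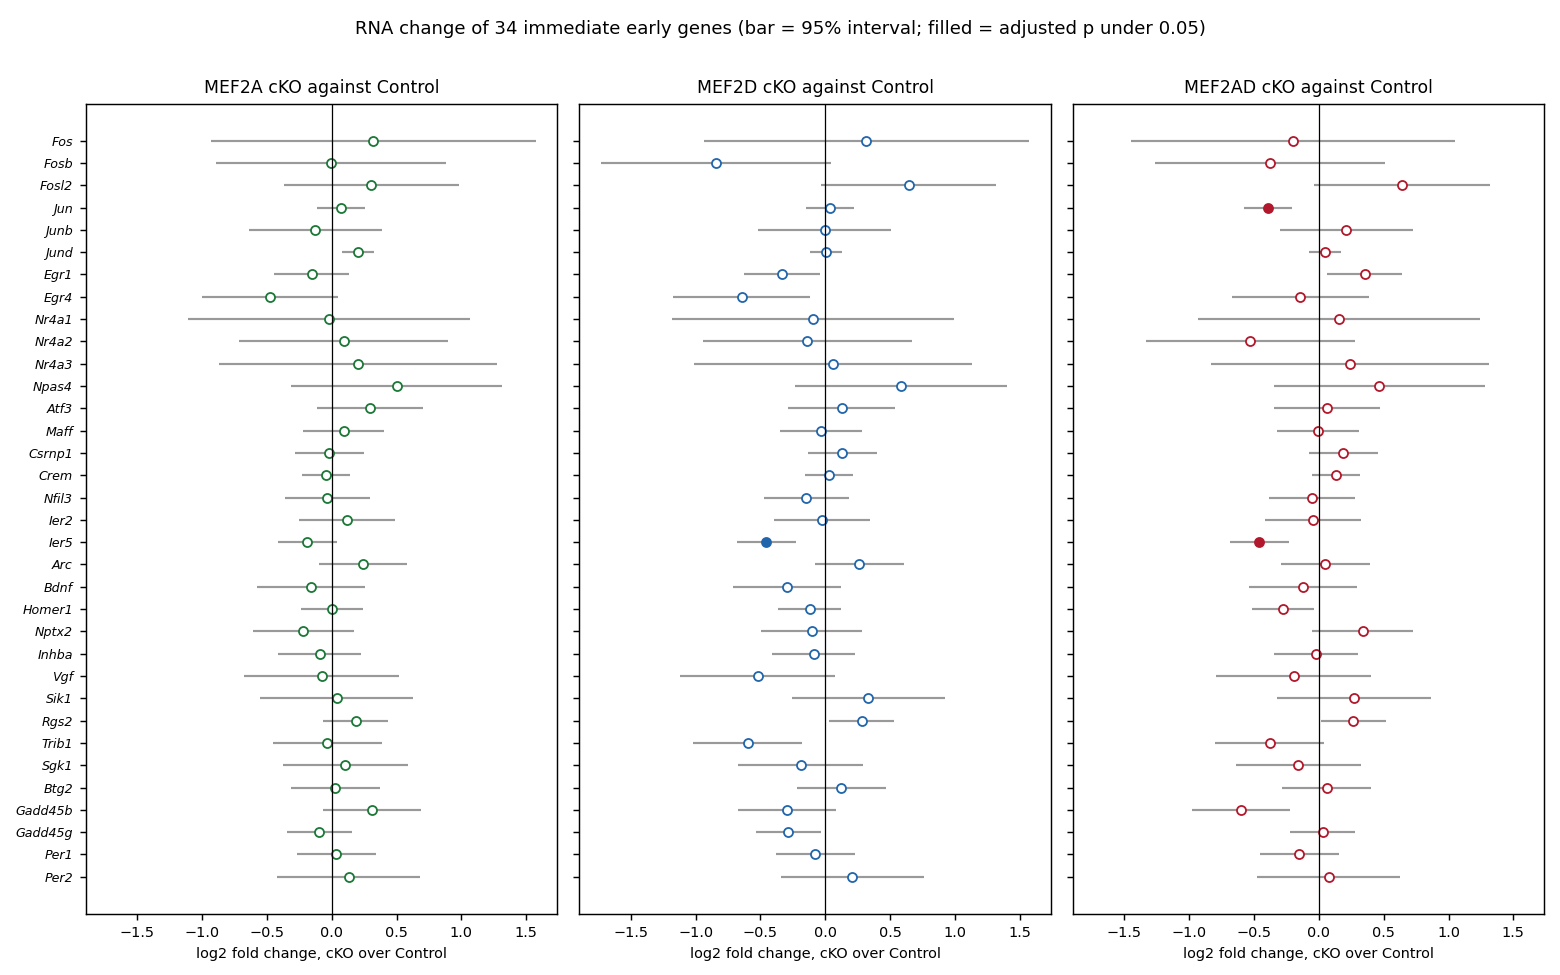
Log2 fold change of cKO over Control on log2(CPM + 1) for the 34 immediate early genes in each knockout line, with 95% intervals from limma. Filled points passed an adjusted p of 0.05: Ier5 in MEF2D cKO (-0.46), and Jun (-0.39) and Ier5 (-0.46) in MEF2AD cKO. The intervals of Fos, Nr4a1 and Nr4a3 are the widest in each panel.

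Jun encodes the partner with which FOS proteins form the AP-1 dimer (ENSMUSG00000052684, chr4:95049036-95052222, mm10). In MEF2AD cKO, Jun measured 73.1, 50.5, 53.1 and 57.5 CPM, against 92.6, 74.2, 71.1 and 69.99 CPM in MEF2AD Control. All 4 double knockout values lay below the Control mean, but MEF2AD cKO 1 lay above the 2 lowest Controls, so the groups overlapped. Jun fell by 0.39 on the log2 scale (limma adjusted p = 0.0125, SE 0.09). Leaving out MEF2AD Control 1, cKO 2 or cKO 3 in turn ended this call, with an adjusted p of up to 0.0770. Values of Jun were 86.6, 87.3, 92.8 and 87.8 CPM in MEF2A cKO and 79.9, 84.9, 88.4 and 84.2 CPM in MEF2A Control. Jun stood at 81.4, 84.1, 95.02 and 82.8 CPM in MEF2D cKO, compared with 90.3, 73.98, 85.4 and 85.7 CPM in MEF2D Control. Neither loss of MEF2A alone (log2 fold of 0.07, SE 0.09; limma adjusted p = 0.912) nor of MEF2D alone (log2 fold of 0.03, SE 0.09; limma adjusted p = 0.894) passed the test for Jun. The double effect minus the MEF2A effect was -0.47 (limma adjusted p = 0.127), and minus the MEF2D effect -0.43 (limma adjusted p = 0.318). A difference between lines was thus not called in the fit of group means. With replicate number as a block, limma called both differences (adjusted p = 0.00270 and 0.0158). Jun lay in cluster 4 of the authors' deposited table, which gave its log2 fold in MEF2AD cKO as -0.39 with an adjusted p of 0.0177.

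Ier5 encodes a nuclear protein that acts on heat shock factor 1 (ENSMUSG00000056708, chr1:155096367-155099636). Ier5 had 9.65, 9.02, 9.01 and 8.95 CPM in MEF2D cKO libraries, against 11.7, 11.6, 14.7 and 13.96 CPM in MEF2D Controls. The groups did not overlap, which held for 6.53% of all genes in this direction, and Ier5 fell, with a log2 fold of -0.46 (SE 0.11; limma adjusted p = 0.0150). In MEF2AD cKO, Ier5 measured 10.6, 12.3, 9.87 and 10.96 CPM, against 12.9, 17.6, 15.5 and 15.8 CPM in MEF2AD Control. These groups did not overlap either, beside 2.88% of all genes, and Ier5 again fell by 0.46, with an SE of 0.11 (limma adjusted p = 0.0170). Values of Ier5 were 12.7, 14.6, 13.6 and 10.5 CPM in MEF2A cKO and 17.5, 15.5, 14.05 and 12.2 CPM in MEF2A Control. In this line the groups overlapped, and Ier5 did not pass (log2 fold of -0.19, SE 0.11; limma adjusted p = 0.732). The call in MEF2D cKO was lost without MEF2D Control 3 or cKO 4 (limma adjusted p up to 0.0640), and that in MEF2AD cKO without Control 2, Control 3, cKO 1 or cKO 3 (up to 0.0868). No MEF2 peak lay within 100 kb of its start. In the authors' deposited table its log2 fold in MEF2AD cKO was -0.48 with an adjusted p of 0.0169.

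**Figure D2:**
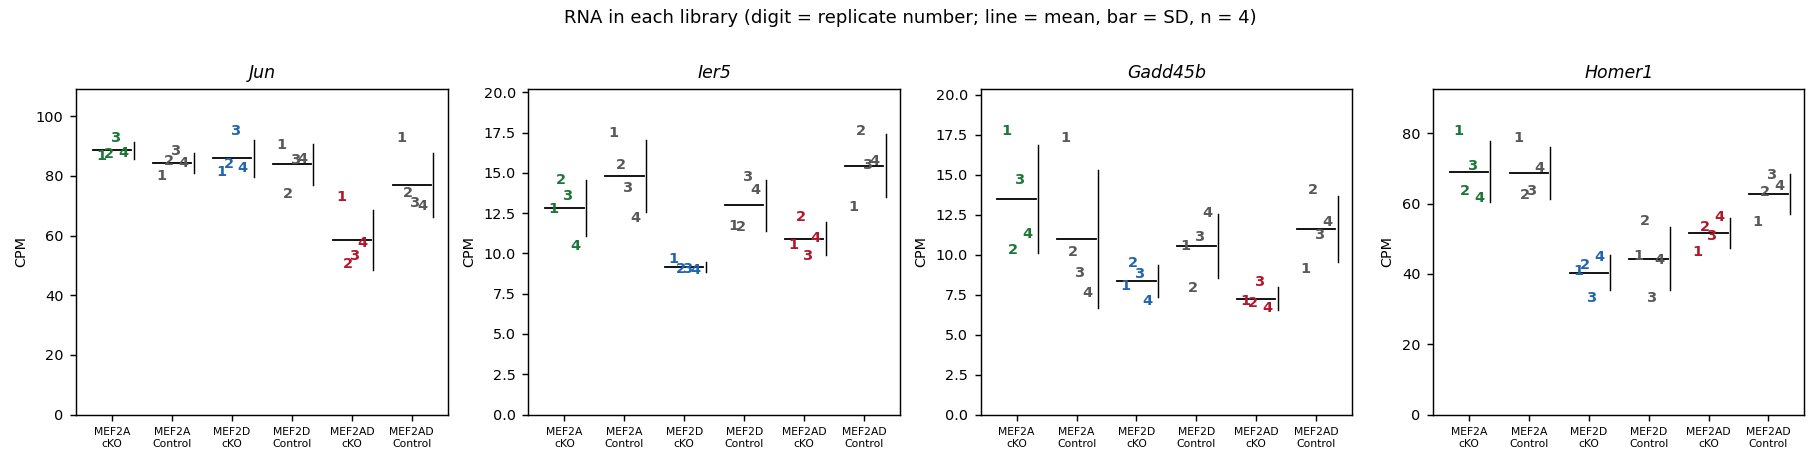
RNA of Jun, Ier5, Gadd45b and Homer1 in each library (CPM on linear axes from 0), with each digit a library by its replicate number, lines for means and bars for SD (n = 4). Ier5 sits below every Control in MEF2D cKO and MEF2AD cKO, and Jun is lowest in MEF2AD cKO.

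The other AP-1 genes showed wide values in every group. Fos stood at 119.6, 42.9, 25.5 and 21.9 CPM in MEF2A cKO, compared with 118.8, 24.9, 23.6 and 16.3 CPM in MEF2A Control. Fos had 75.999, 36.5, 74.8 and 104.3 CPM in MEF2D cKO libraries, against 38.02, 33.3, 95.02 and 73.9 CPM in MEF2D Controls. In MEF2AD cKO, Fos measured 76.7, 18.2, 16.9 and 44.6 CPM, against 68.3, 20.02, 16.5 and 82.1 CPM in MEF2AD Control. Fos, the prototype inducible gene (ENSMUSG00000021250, chr12:85473890-85477274), thus spanned 16.3 to 119.6 CPM, with high and low libraries in cKO and Control groups alike. Its log2 fold was 0.32 in MEF2A cKO, 0.32 in MEF2D cKO and -0.20 in MEF2AD cKO, each with an SE of 0.61. Fosb, whose protein is a longer-lived relative of FOS, was a low gene. Values of Fosb were 4.902, 1.69, 1.803 and 0.8598 CPM in MEF2A cKO and 6.73, 1.19, 1.98 and 0.667 CPM in MEF2A Control. Fosb stood at 0.483, 0.651, 1.08 and 0.798 CPM in MEF2D cKO, compared with 0.801, 1.34, 4.38 and 3.18 CPM in MEF2D Control. Fosb had 1.704, 0.599, 0.5903 and 2.496 CPM in MEF2AD cKO libraries, against 3.61, 0.589, 1.06 and 3.55 CPM in MEF2AD Controls. The MEF2D groups overlapped, since MEF2D Control 1 lay inside the cKO values, and the log2 fold of Fosb in MEF2D cKO was -0.84 (SE 0.43; limma adjusted p = 0.294). Junb, which encodes another JUN partner, overlapped in all 3 lines. In MEF2A cKO, Junb measured 14.4, 10.6, 11.5 and 7.81 CPM, against 18.9, 10.7, 12.2 and 8.101 CPM in MEF2A Control. Values of Junb were 7.48, 6.32, 9.51 and 9.57 CPM in MEF2D cKO and 7.004, 5.43, 11.4 and 9.94 CPM in MEF2D Control. Junb stood at 17.6, 7.74, 9.95 and 15.2 CPM in MEF2AD cKO, compared with 11.7, 8.76, 7.64 and 13.9 CPM in MEF2AD Control. Junb passed in none of them, with a log2 fold of -0.13 (SE 0.25; limma adjusted p = 0.953) in MEF2A cKO, a log2 fold of -0.01 (SE 0.25; limma adjusted p = 0.995) in MEF2D cKO and a log2 fold of 0.21 (SE 0.25; limma adjusted p = 0.929) in MEF2AD cKO. Fosl2, encoding the FOS relative FRA-2, gave a log2 fold of 0.64 in MEF2D cKO and 0.64 in MEF2AD cKO (SE 0.33 each; limma adjusted p = 0.292 and 0.551), and its groups overlapped in both. Jund, the AP-1 gene whose RNA depends least on activity, was higher in each MEF2A cKO library (107.7 to 119.1 CPM) than in each MEF2A Control (93.7 to 101.6 CPM), a separation found for 1.96% of all genes, with a log2 fold of 0.20 (SE 0.06; limma adjusted p = 0.267).

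Of the EGR zinc finger factors, Egr1 is the best known marker of synaptic plasticity. Egr1 had 40.2, 53.1, 51.2 and 35.2 CPM in MEF2A cKO libraries, against 56.6, 49.4, 48.2 and 44.2 CPM in MEF2A Controls. In MEF2D cKO, Egr1 measured 43.8, 41.7, 50.7 and 42.5 CPM, against 56.7, 47.03, 69.9 and 54.4 CPM in MEF2D Control. Values of Egr1 were 74.6, 50.2, 67.8 and 88.3 CPM in MEF2AD cKO and 53.1, 53.1, 46.95 and 62.6 CPM in MEF2AD Control. Its estimates had opposite signs in the lines that lack MEF2D alone (log2 fold of -0.33, SE 0.14; limma adjusted p = 0.188) and both factors (log2 fold of 0.35, SE 0.14; limma adjusted p = 0.313), and the groups overlapped in each. The difference of these effects was 0.69 (SE 0.20; limma adjusted p = 0.286), which did not pass. Egr1 was also called higher in MEF2AD cKO by limma without MEF2AD cKO 2 (adjusted p = 0.0479). Egr4 was lower in each MEF2D cKO library (8.65 to 11.7 CPM) than in each MEF2D Control (13.2 to 20.97 CPM), as were 6.53% of all genes. Its log2 fold was -0.65 (SE 0.26; limma adjusted p = 0.153).

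The NR4A genes encode orphan nuclear receptors and all held peaks of both factors, and none passed in any line. Nr4a1 stood at 133.4, 39.6, 32.3 and 27.2 CPM in MEF2A cKO, compared with 160.95, 32.96, 35.7 and 26.02 CPM in MEF2A Control. Nr4a1 had 69.8, 40.8, 86.7 and 98.2 CPM in MEF2D cKO libraries, against 62.1, 48.6, 116.6 and 90.5 CPM in MEF2D Controls. In MEF2AD cKO, Nr4a1 measured 95.02, 38.5, 37.9 and 62.3 CPM, against 80.4, 28.1, 23.6 and 102.6 CPM in MEF2AD Control. Nr4a1 followed Fos closely from library to library, though their extremes lay in different libraries. Nr4a1 was highest in MEF2A Control 1 and lowest in MEF2AD Control 3, and Fos was highest in MEF2A cKO 1 and lowest in MEF2A Control 4. Values of Nr4a3 were 139.4, 42.2, 31.6 and 30.8 CPM in MEF2A cKO and 128.6, 30.5, 32.5 and 25.5 CPM in MEF2A Control. Nr4a3 stood at 66.9, 43.04, 43.3 and 92.5 CPM in MEF2D cKO, compared with 45.3, 41.97, 65.5 and 78.4 CPM in MEF2D Control. Nr4a3 had 71.5, 36.5, 27.7 and 46.3 CPM in MEF2AD cKO libraries, against 81.1, 13.8, 21.5 and 69.3 CPM in MEF2AD Controls. Nr4a3 ranged over 10.1-fold between its lowest and highest library. The log2 folds of Nr4a1 were -0.02, -0.10 and 0.16 in MEF2A, MEF2D and MEF2AD cKO (SE 0.53 each), and those of Nr4a3 were 0.20, 0.06 and 0.24 (SE 0.52 each). Nr4a2 gave -0.53 in MEF2AD cKO (SE 0.39; limma adjusted p = 0.808), with libraries of 21.9 to 39.1 CPM against 22.8 to 59.3 CPM in MEF2AD Control.

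Npas4, a factor induced by neuronal calcium entry and little else, had positive estimates in all 3 lines, none of which passed. In MEF2A cKO, Npas4 measured 34.4, 17.7, 15.02 and 6.52 CPM, against 30.1, 9.08, 8.85 and 5.43 CPM in MEF2A Control. Values of Npas4 were 20.6, 12.1, 17.9 and 20.9 CPM in MEF2D cKO and 9.07, 9.75, 14.01 and 13.3 CPM in MEF2D Control. Npas4 stood at 18.02, 10.1, 13.2 and 18.1 CPM in MEF2AD cKO, compared with 11.6, 7.43, 6.66 and 18.5 CPM in MEF2AD Control. The groups overlapped in each line, with log2 folds of 0.50, 0.58 and 0.47 in MEF2A, MEF2D and MEF2AD cKO (SE 0.40 each; limma adjusted p = 0.833, 0.466 and 0.865). Nfil3 had 22.1, 14.4, 10.9 and 14.5 CPM in MEF2A cKO libraries, against 20.99, 16.9, 11.6 and 13.6 CPM in MEF2A Controls. In MEF2D cKO, Nfil3 measured 14.9, 15.1, 18.7 and 16.8 CPM, against 15.5, 16.7, 20.97 and 19.8 CPM in MEF2D Control. Values of Nfil3 were 13.1, 15.5, 11.6 and 14.97 CPM in MEF2AD cKO and 13.3, 14.7, 13.9 and 15.3 CPM in MEF2AD Control. Nfil3, a repressor of clock output genes, overlapped in all 3 lines, with estimates within 0.15 of 0. The others of this role, Atf3 and Crem (CREB and ATF family), Maff (a small MAF factor), Csrnp1 and Ier2 (inducible nuclear proteins), had log2 folds between -0.05 and 0.29, and none passed.

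Among the effectors, 0 of 10 passed in any line in the fit of group means. Arc, which encodes the capsid-like protein that removes AMPA receptors from synapses, overlapped in each. Arc stood at 15.5, 11.2, 13.7 and 13.9 CPM in MEF2A cKO, compared with 14.3, 7.78, 11.3 and 12.8 CPM in MEF2A Control. Arc had 13.4, 16.5, 19.4 and 16.5 CPM in MEF2D cKO libraries, against 13.7, 12.3, 14.7 and 13.3 CPM in MEF2D Controls. In MEF2AD cKO, Arc measured 15.1, 13.3, 12.3 and 23.3 CPM, against 18.6, 12.8, 15.6 and 13.5 CPM in MEF2AD Control. Its log2 fold was 0.24, 0.26 and 0.05 in MEF2A, MEF2D and MEF2AD cKO (SE 0.17 each). Values of Bdnf were 29.8, 14.5, 11.1 and 17.1 CPM in MEF2A cKO and 27.4, 14.4, 18.5 and 18.01 CPM in MEF2A Control. Bdnf stood at 13.5, 15.2, 10.1 and 13.2 CPM in MEF2D cKO, compared with 16.9, 16.7, 14.1 and 16.3 CPM in MEF2D Control. Bdnf had 11.7, 13.7, 14.9 and 12.5 CPM in MEF2AD cKO libraries, against 15.1, 11.9, 18.9 and 12.6 CPM in MEF2AD Controls. Bdnf, the gene of a secreted neurotrophin, also overlapped in each line, with estimates of -0.16, -0.29 and -0.12 (SE 0.20 each). Homer1, which encodes a scaffold of the postsynaptic density and, by activity, its short form, overlapped by 1 pair of libraries in the double knockout. In MEF2AD cKO, Homer1 measured 46.1, 53.3, 50.8 and 56.1 CPM, against 54.8, 63.2, 68.1 and 65.1 CPM in MEF2AD Control. MEF2AD cKO 4 lay above MEF2AD Control 1, and the test did not pass (log2 fold of -0.28, SE 0.12; limma adjusted p = 0.355). Values of Homer1 were 80.6, 63.5, 70.7 and 61.5 CPM in MEF2A cKO and 78.7, 62.6, 63.7 and 70.2 CPM in MEF2A Control. Homer1 stood at 40.9, 42.5, 33.2 and 44.8 CPM in MEF2D cKO, compared with 45.2, 55.1, 33.2 and 44.04 CPM in MEF2D Control. Homer1 gave log2 folds of 0.00 in MEF2A cKO and -0.12 in MEF2D cKO (SE 0.12 each). Trib1, a pseudokinase gene, was lower in each MEF2D cKO library (12.1 to 17.3 CPM) than in each MEF2D Control (21.4 to 25.5 CPM), as were 6.53% of all genes. Its log2 fold was -0.60 (SE 0.20; limma adjusted p = 0.0933). Rgs2, which encodes a regulator of G protein signalling, was higher in each MEF2AD cKO library (19.1 to 22.5 CPM) than in each MEF2AD Control (14.4 to 18.7 CPM), as were 3.27% of all genes, with a log2 fold of 0.27 (SE 0.12; limma adjusted p = 0.453). Nptx2 (a secreted pentraxin), Inhba, Vgf (a secreted neuropeptide precursor), Sik1 (a kinase that restrains CREB signalling) and Sgk1 (a kinase induced by glucocorticoids) had log2 folds between -0.52 and 0.34.

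Gadd45b, which encodes a stress-inducible protein linked to DNA demethylation (ENSMUSG00000015312, chr10:80930091-80932204), had the lowest estimate of the list in MEF2AD cKO. Gadd45b had 7.08, 6.99, 8.26 and 6.695 CPM in MEF2AD cKO libraries, against 9.09, 14.1, 11.2 and 12.04 CPM in MEF2AD Controls. The groups did not overlap, which held for 2.88% of all genes in this direction. The log2 fold of -0.60 (SE 0.18; limma adjusted p = 0.0995) did not pass. In MEF2A cKO, Gadd45b measured 17.7, 10.3, 14.7 and 11.3 CPM, against 17.3, 10.2, 8.85 and 7.62 CPM in MEF2A Control. Values of Gadd45b were 8.04, 9.48, 8.77 and 7.09 CPM in MEF2D cKO and 10.5, 7.89, 11.1 and 12.6 CPM in MEF2D Control. These groups overlapped in both single knockouts, with estimates of 0.31 and -0.29 (SE 0.18 each). The double effect minus the MEF2A effect was -0.91 (limma adjusted p = 0.158), and it was called with replicate number as a block (limma adjusted p = 0.0290). DESeq2 called the fall in MEF2AD cKO (adjusted p = 0.0340), as did the authors' deposited table when all Controls were pooled (log2 fold -0.57, adjusted p = 0.0425). Its relative Gadd45g was lower in each MEF2D cKO library (15.2 to 16.8 CPM) than in each MEF2D Control (17.8 to 21.8 CPM), as were 6.53% of all genes. The log2 fold of Gadd45g was -0.28 (SE 0.12; limma adjusted p = 0.197). Btg2, an antiproliferative gene, and the period genes Per1 and Per2 of the clock had estimates between -0.15 and 0.21.

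Across lines, the double knockout was not called to differ from the single ones at any of the 34 genes, whether the MEF2A effect, the MEF2D effect or their sum was subtracted, beside 0.549%, 0.103% and 0.356% of all genes by limma. On recovered reads edgeR called none of them either, while DESeq2 called Egr1 after the MEF2D effect or the sum was subtracted (adjusted p = 0.0464 and 0.0377). With no adjustment 4, 2 and 3 of the 34 had p under 0.05, against 7.01%, 7.32% and 10.3% of all genes. With replicate number as a block, limma called Jun and Gadd45b lower after the MEF2A effect was subtracted (1.26% of all genes). After the MEF2D effect it called Jun lower and Egr1 higher (0.459%), and after the sum Jun lower and Egr1 and Egr4 higher (1.16%). In the MEF2D and MEF2AD lines not every pair of same-numbered libraries deviated together. The other genes of the pathway, in lists made with earlier results of these data known, gave few calls as well, at shares to be read against the 4.93% of all genes called in MEF2D cKO and 2.42% in MEF2AD cKO. Of 26 measured regulators that act upstream of immediate early genes, limma called 0 higher and 2 lower in MEF2D cKO. These were Crtc1, the coactivator of CREB, at 252.7 ± 9.8 CPM against 309.3 ± 12.2 CPM in MEF2D Control (SD, n = 4; log2 fold -0.29, limma adjusted p = 0.0204), and Ep300, an acetyltransferase, at 187.1 ± 8.3 CPM against 220.1 ± 10.7 CPM (log2 fold -0.23, limma adjusted p = 0.0174). None of the 26 passed in MEF2A or MEF2AD cKO. Of 44 measured further immediate early and late response genes, Gpr3 rose (log2 fold 0.61, limma adjusted p = 0.0349) and Nptx1 fell (-0.24, 0.0444) in MEF2D cKO, and Amigo3 fell in MEF2AD cKO (log2 fold -0.52, limma adjusted p = 0.00309). Of 18 measured clock genes outside the list, 1 was called, Cry1, a clock repressor, which fell in MEF2D cKO (log2 fold -0.38, limma adjusted p = 0.0478). Of 10 heat shock and stress genes 1 was called, Hspa1a, which fell in MEF2D cKO (-0.50, 0.0228), and of 15 glucocorticoid-responsive genes none was called in any line.

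Most of these genes varied more between libraries of the same group than the typical gene of like level. The SD of log2(CPM + 1) within groups was 1.001 for Fos, 0.87 for Nr4a1, 0.86 for Nr4a3, 0.70 for Fosb, 0.65 for Npas4 and 0.64 for Nr4a2, against a median of 0.13 over all 15469 genes. Over the 34 genes the median was 0.29. For Fos this was 10.7 times the median of the 200 genes nearest in mean level, and 33 of the 34 genes lay above that median for their own level. Crem, at 0.12, lay below it, and Jund (0.09) and Jun (0.14) were the steadiest AP-1 genes. The 2 genes called in a knockout in the fit of group means, Jun and Ier5 (0.16), were thus among the steady ones. The intervals of Fos and the NR4A genes were several times wider.

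**Figure D3:**
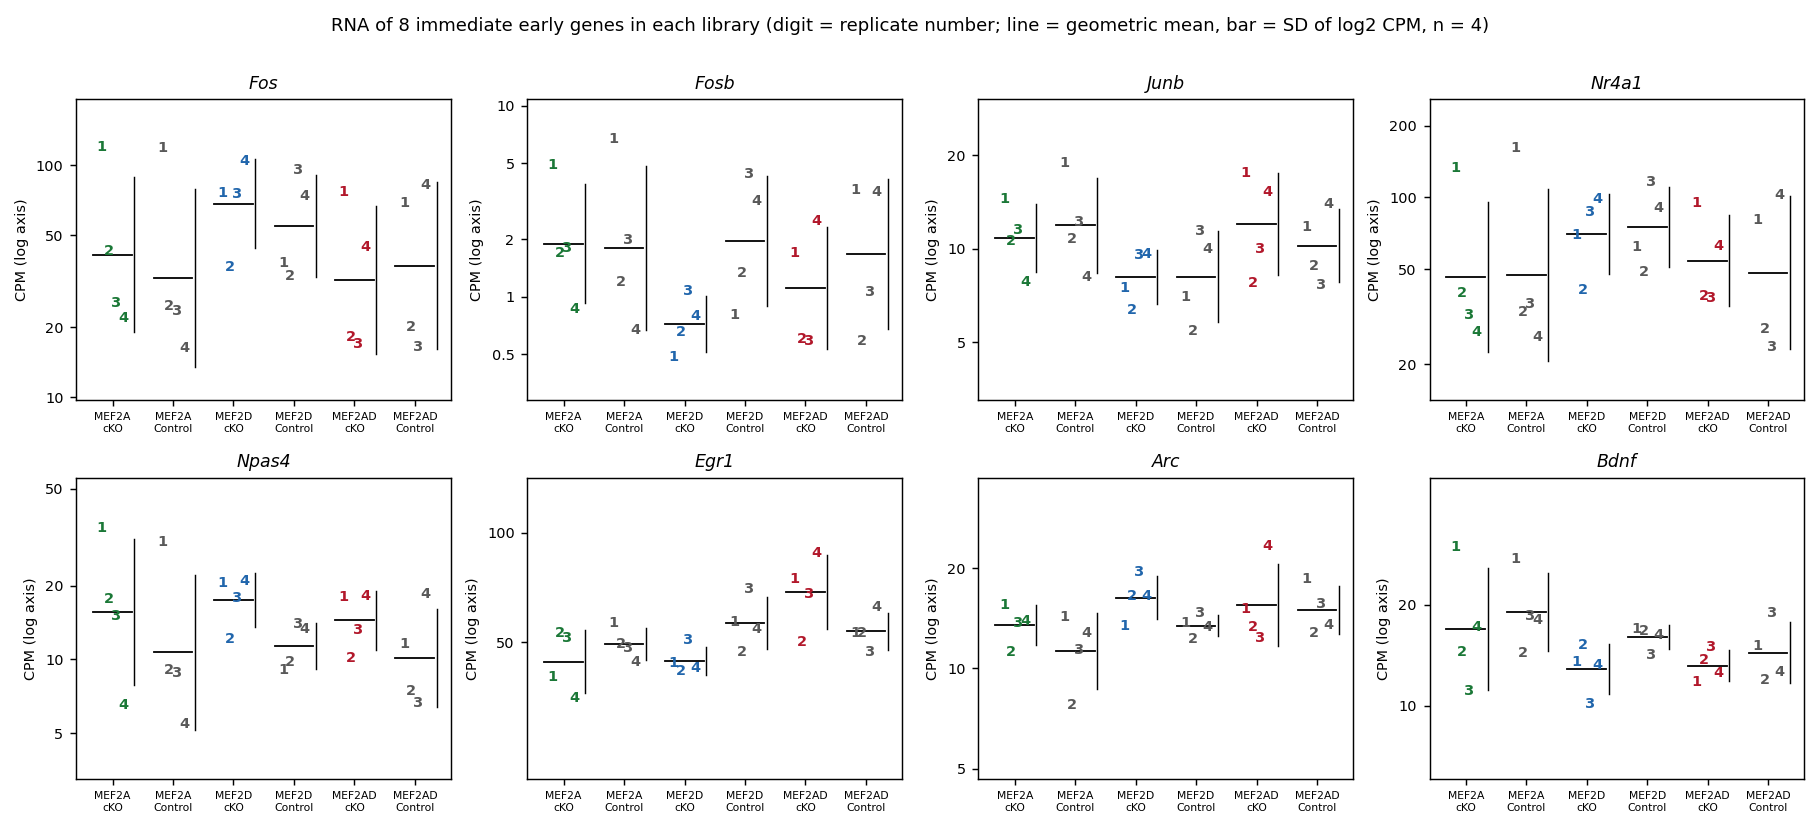
RNA of 8 immediate early genes in each library (CPM, log axes), with each digit a library by its replicate number, lines for geometric means and bars for the SD of log2 CPM (n = 4). Library 1 is the highest of MEF2A cKO and of MEF2A Control for Fos, Fosb, Junb, Nr4a1 and Npas4, while Egr1 and Arc vary less.

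Many members moved together from library to library. After group means were removed, 16 of 33 genes correlated positively with Fos over 24 libraries and 1 negatively by a permutation test within groups (100000 resamples, two-sided, Benjamini-Hochberg over 33). Of the 16, 13 also passed by Spearman's rho. The test permuted each group on its own, while same-numbered cKO and Control libraries deviated together for some members, among them Fos. The 24 libraries may thus not be independent, and these p-values may be too small. Nr4a1 followed Fos most closely (Pearson r = 0.98, adjusted p = 4.12e-05; Spearman rho = 0.96, adjusted p = 0.00011; permutation tests whose smallest possible p is 1e-05), and r was 0.98 without the 2 libraries farthest in Fos. Nr4a3 (r = 0.93), Fosl2 (0.93), Nr4a2 (0.92), Ier2 (0.92), Junb (0.91), Npas4 (0.90), Fosb (0.90), Sik1 (0.89) and Egr4 (0.85) came next, and for these r stayed between 0.76 and 0.90 without those 2 libraries. The relations of Nfil3, Per1 and Trib1 rested on MEF2A cKO 1 and MEF2A Control 1, without which r was 0.39, 0.44 and 0.26. Sgk1 ran against Fos (r = -0.70, permutation adjusted p = 0.00279; rho = -0.68, adjusted p = 0.0069). Jun (r = 0.30), Ier5 (0.28), Arc (0.39), Bdnf (0.26), Homer1 (-0.03) and Gadd45b (0.38) did not pass.

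This pattern was rare among genes at large. Of 14664 genes with a mean of at least 1 CPM, 20 (0.136%) reached r of 0.8 with Fos, and 10 of the 20 were members. The 5 genes most like Fos over the 24 libraries were Nr4a1, Dusp1 (r = 0.94, a phosphatase of MAP kinases outside the list), Nr4a3, Fosl2 and Nr4a2. Fos was not related to read depth (r = 0.23, permutation p = 0.391; rho = 0.25, p = 0.345; r = 0.04 without the 2 farthest libraries).

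**Figure D4:**
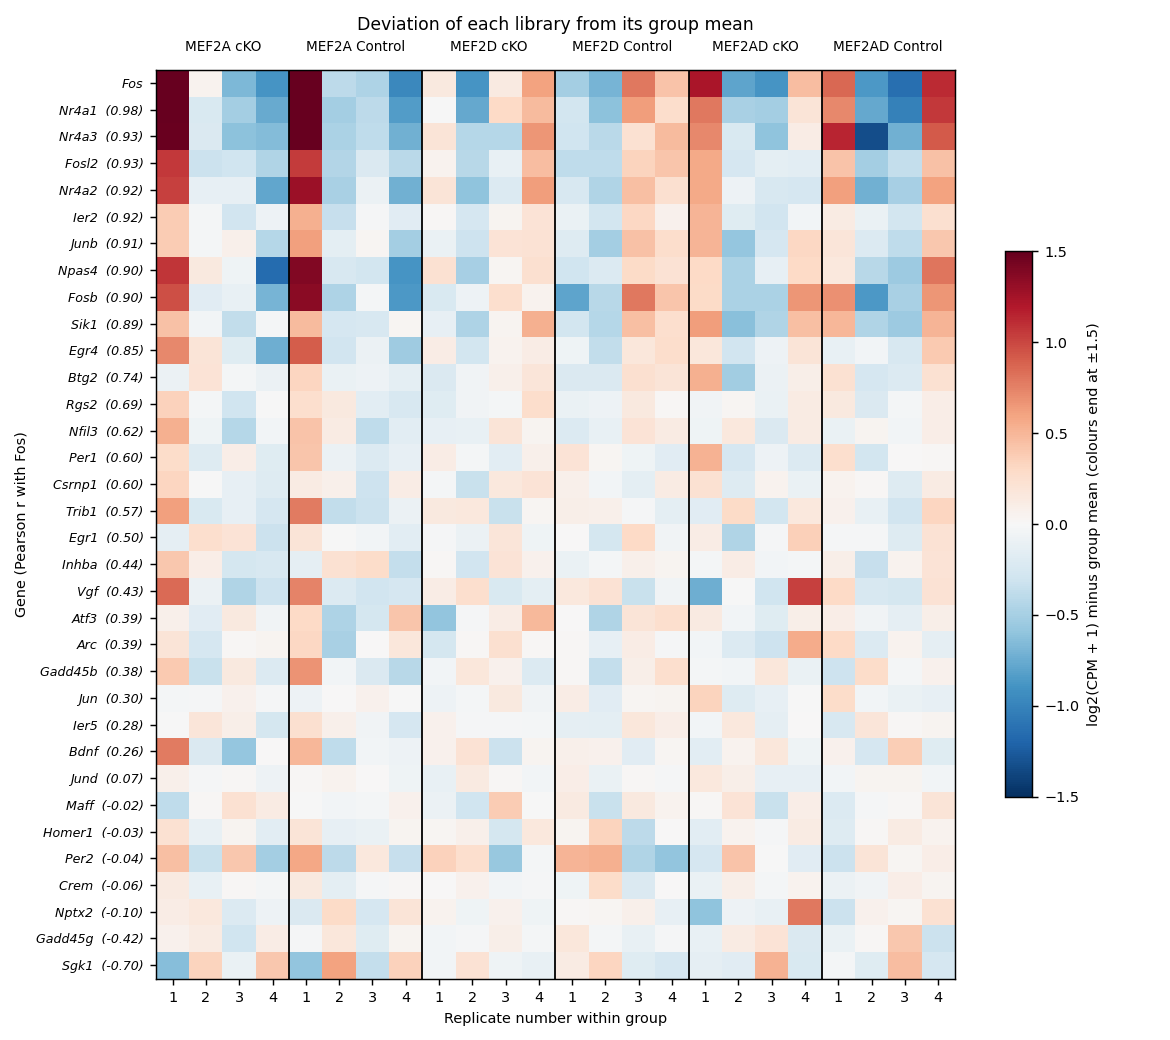
Deviation of log2(CPM + 1) from the group mean for each of the 34 genes (rows, ordered by Pearson r with Fos, in brackets) in each of 24 libraries (columns, by group and replicate number). Genes at the top are high together in MEF2A cKO 1 and MEF2A Control 1, in MEF2AD cKO 1 and in MEF2AD Control 1 and 4, and Sgk1 in the bottom row is low in the first pair.

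High libraries tended to carry the same number in the knockout and in its Control. Over the 12 pairs of same-numbered libraries, deviations correlated for 9 of the 34 genes (exact permutation test over the 13824 orders within lines, two-sided, Benjamini-Hochberg over 34), a relation that was examined after the values had been seen. For Fos the Pearson r was 0.90 (exact permutation adjusted p = 0.0271; Spearman rho = 0.91, adjusted p = 0.0217; r = 0.83 without the 2 farthest pairs). The others were Sgk1 (r = 0.92), Fosb (0.92), Nr4a1 (0.91), Sik1 (0.90), Nfil3 (0.89), Junb (0.85), Nr4a3 (0.81) and Per2 (0.81). The median r was 0.68 over the 34 genes and 0.21 over 14665 genes. How many of all genes would pass this test is not given here, so the count of 9 has no background share. Of the 14665 genes, 0.286% had r at or above that of Fos. What a number stands for, such as a litter or a day of collection, is not given in the labels and was not tested.

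H3K27ac at the MEF2 sites of these genes changed in the lines that lack MEF2D, in both directions. The deposited table covers 1419 MEF2 sites, of which 16 lay in or within 5 kb of 14 of the genes, and 30 in all lay there or within 100 kb of a start, at 19 genes. H3K27ac was called relative to the typical MEF2 site (edgeR, TMM), and the sites as a whole had less signal: with library totals in place of TMM, the log2 fold of the median site was -0.51 in MEF2AD cKO, -0.36 in MEF2D cKO and -0.08 in MEF2A cKO. Of the 16 nearest sites, 6 were higher and 1 lower in MEF2AD cKO relative to the typical site, beside 30.9% and 32.2% of all 1372 tested sites. With library totals 2 were higher and 5 lower, beside 2.04% and 54.9%. In MEF2D cKO 2 were higher and 1 lower (all sites 14.7% and 20%), which with library totals became 0 and 4 (0.583% and 41.2%). In MEF2A cKO 0 of the 16 were called on either scale, beside 0.0729% of sites with TMM and 0% with library totals, and DESeq2 called 0 too (0 of the 16 had an unadjusted p under 0.05). Median depth was 24 to 117 reads at a site, the fewest in MEF2AD cKO 3 (24) and MEF2AD Control 3 (34), and the input libraries gave at most 0.82 RPM (reads at a site scaled to all reads of the library) at these sites.

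The sites that gained most belonged to Fos, Npas4 and Nr4a1. At a site 37579 bases before the start of Fos (chr12:85436014-85436608), with peaks of both factors, H3K27ac was 5.37, 4.94 and 6.702 RPM in MEF2AD cKO, against 3.46, 3.04 and 2.99 in MEF2AD Control. The double knockout values all lay above the Controls, with a log2 fold of 1.27 (SE 0.15, edgeR adjusted p = 5.23e-10) relative to the typical site and 0.76 (SE 0.16, edgeR adjusted p = 5.26e-05) by library totals. At a site 17882 bases before Fos, with a MEF2A peak, H3K27ac was 4.397, 4.67 and 6.13 RPM in MEF2AD cKO, against 3.91, 3.61 and 4.14 in MEF2AD Control, again without overlap (log2 fold 0.85, SE 0.14, edgeR adjusted p = 9.50e-07; by library totals 0.35, SE 0.14, edgeR adjusted p = 0.0335). At the site 1711 bases before Fos, H3K27ac was 7.89, 7.15 and 9.48 RPM in MEF2AD cKO, against 7.51, 5.54 and 8.396 in MEF2AD Control. These groups overlapped, and the rise of 0.72 (SE 0.14, edgeR adjusted p = 2.27e-05) relative to the typical site became 0.20 (SE 0.15, edgeR adjusted p = 0.267) by library totals. RNA of Fos did not pass in this line. How many of all sites separate without overlap is not given here, for the Fos sites or those described below.

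At the site within Npas4 (chr19:4992699-4993271; 3014 bases before the start in the promoter table), H3K27ac was 4.08, 4.18 and 6.37 RPM in MEF2AD cKO, against 3.19, 2.604 and 3.34 in MEF2AD Control. The groups did not overlap (log2 fold 1.14, SE 0.19, edgeR adjusted p = 1.20e-06 relative to the typical site; by library totals 0.63, SE 0.20, edgeR adjusted p = 0.00732). At the site at the upstream end of the Nr4a1 span (chr15:101253873-101254354), H3K27ac was 10.5, 10.1 and 13.3 RPM in MEF2AD cKO, against 8.397, 7.31 and 10.6 in MEF2AD Control. MEF2AD Control 3 lay above the values of cKO 1 and cKO 2 there, and the site was called higher on both scales (log2 fold 0.91, SE 0.13, edgeR adjusted p = 8.82e-08; by library totals 0.39, SE 0.14, edgeR adjusted p = 0.0181). At the Jun promoter (chr4:95052085-95052433), where both factors bind, H3K27ac was 2.69, 2.51 and 3.19 RPM in MEF2AD cKO, against 2.74, 2.67 and 2.3003 in MEF2AD Control. The rise of 0.53 (SE 0.17, edgeR adjusted p = 0.00598) relative to the typical site became 0.03 (SE 0.17, edgeR adjusted p = 0.895) by library totals, so the mark at Jun was not called lower in the knockout in which its RNA fell. At Nr4a3 and Nfil3 the calls of 0.39 (SE 0.12, edgeR adjusted p = 0.00424) and 0.44 (SE 0.16, edgeR adjusted p = 0.0154) also turned with library totals, to -0.12 (SE 0.12, edgeR adjusted p = 0.426) and -0.07 (SE 0.16, edgeR adjusted p = 0.760). The Nfil3 call was also lost without MEF2AD Control 2 or cKO 3 (edgeR adjusted p up to 0.189). In MEF2D cKO, the Npas4 site (log2 fold 0.84, SE 0.23, edgeR adjusted p = 0.00358; by library totals 0.48, SE 0.24, edgeR adjusted p = 0.105) and the Nr4a3 site (log2 fold 0.34, SE 0.13, edgeR adjusted p = 0.0371; by library totals -0.02, SE 0.13, edgeR adjusted p = 0.903) were called higher relative to the typical site and not by library totals. The Npas4 call in MEF2D cKO was lost without cKO 3 (edgeR adjusted p = 0.216), and the Nr4a3 call without Control 1, Control 2, cKO 2 or cKO 3 (up to 0.2096).

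The 4 sites with the largest falls in MEF2AD cKO relative to the typical site held MEF2D without MEF2A, and 3 of them lay within 100 kb of Fosb or Gadd45b. Inside Homer1 (chr13:93399612-93400238), another MEF2D site, H3K27ac was 4.64, 4.24 and 3.11 RPM in MEF2AD cKO, against 9.56, 8.58 and 8.63 in MEF2AD Control. In the MEF2D line, H3K27ac was 4.77, 5.81 and 4.78 RPM in MEF2D cKO, against 8.69, 10.6 and 9.18 in MEF2D Control. No cKO value reached a Control in either line, and the site fell on both scales, by 0.60 (SE 0.13, edgeR adjusted p = 5.88e-05) and by library totals 1.11 (SE 0.13, edgeR adjusted p = 8.40e-10) in MEF2AD cKO, and by 0.54 (SE 0.13, edgeR adjusted p = 0.00101) and 0.90 (SE 0.14, edgeR adjusted p = 6.80e-07) in MEF2D cKO. At a site downstream of Gadd45b (chr10:80940618-80941282), which lies 7342 bases from Gng7 and so nearer to that gene, H3K27ac was 1.81, 2.35 and 1.47 RPM in MEF2AD cKO, against 6.34, 5.44 and 6.33 in MEF2AD Control. It fell by 1.05 (SE 0.15, edgeR adjusted p = 5.27e-08), and by library totals 1.56 (SE 0.16, edgeR adjusted p = 1.05e-11). A site 32188 bases before Fosb, 1648 bases from Ercc1, had the lowest log2 fold of the 30 in MEF2AD cKO. There H3K27ac was 0.733, 0.638 and 0.654 RPM in MEF2AD cKO, against 3.12, 2.77 and 2.76 in MEF2AD Control (log2 fold -1.61, SE 0.22, edgeR adjusted p = 2.36e-08; by library totals -2.10, SE 0.22, edgeR adjusted p = 5.52e-11). The site 22955 bases before Fosb, which holds a MEF2A peak, was called higher relative to the typical site (log2 fold 0.65, SE 0.11, edgeR adjusted p = 2.71e-06) and not by library totals (log2 fold 0.14, SE 0.11, edgeR adjusted p = 0.315). Distance alone does not assign a site to a gene.

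**Figure D5:**
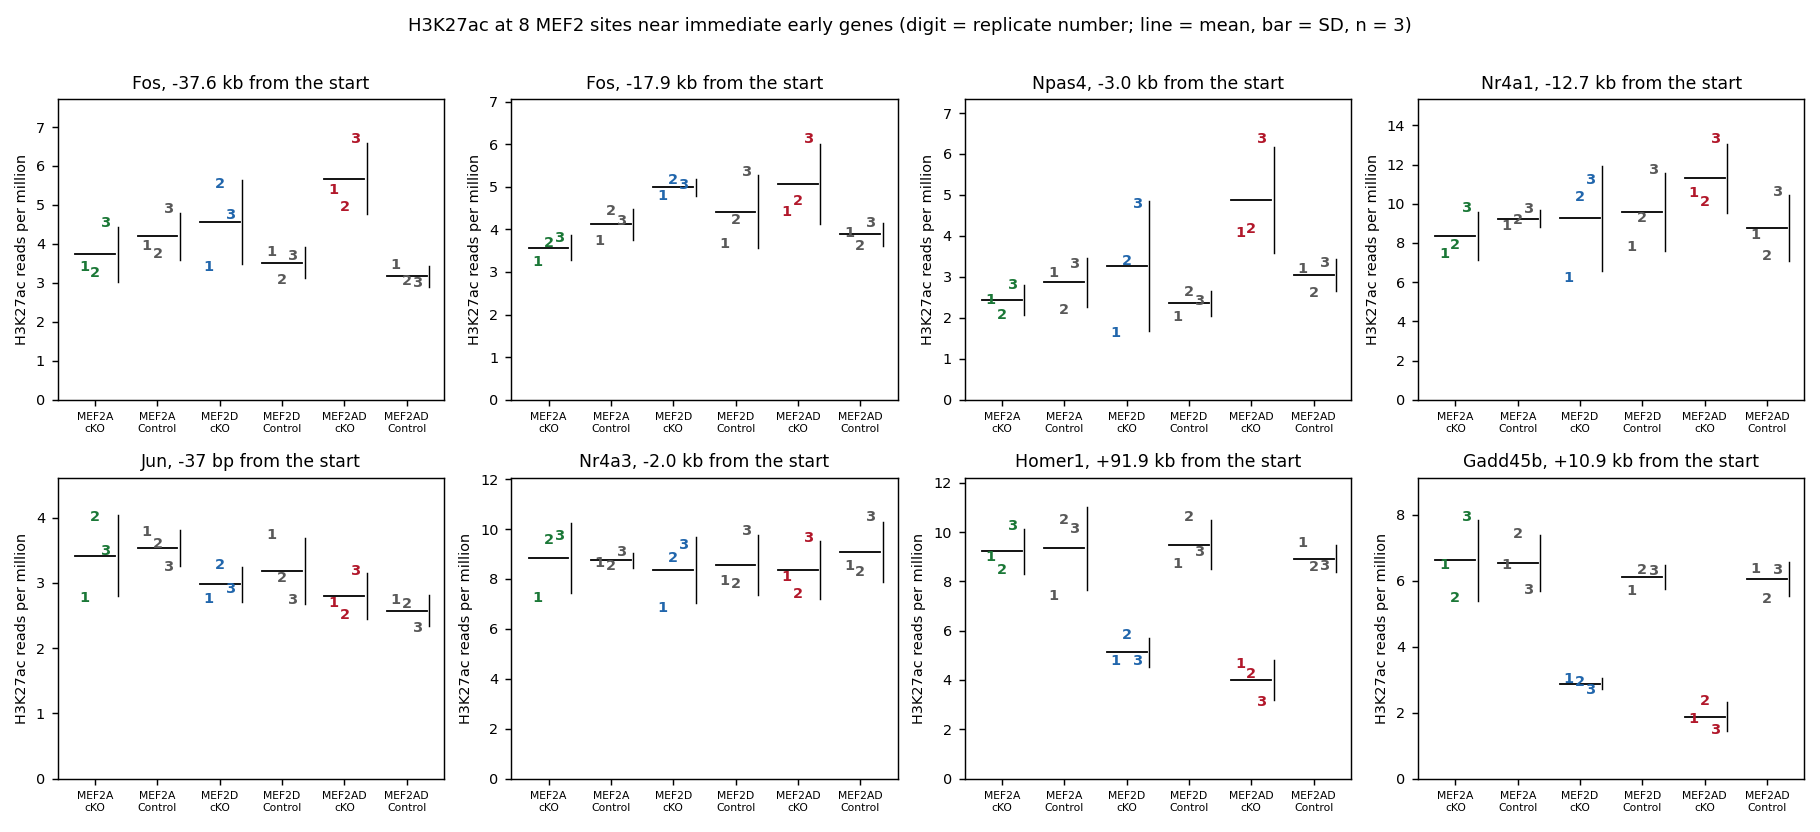
H3K27ac at 8 MEF2 sites of immediate early genes in RPM (linear axes from 0), with each digit a library by its replicate number, lines for means and bars for SD (n = 3). In MEF2AD cKO the 2 distal Fos sites and the Npas4 site lie above every MEF2AD Control, while Homer1 and the Gadd45b site lie below every Control in MEF2D cKO and MEF2AD cKO.

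The authors class each MEF2 site as compensatory or non-compensatory, by a rule that is not stated. All 10 member sites of the first class held a MEF2A peak while none of the 20 of the second did. The share with a MEF2A peak over all sites of each class is not given here. This split is thus not shown to be particular to these genes, and it may follow from the rule. Relative to the typical site, compensatory member sites had a median log2 fold of 0.59 in MEF2AD cKO, with 9 of 10 above 0, beside a median of 0.25 over all 187 tested sites of that class. By library totals 6 of 10 were above 0, with a median of 0.08 against -0.26 for the class. Non-compensatory member sites had a median of -0.12 against -0.06 over 1185 sites, and by library totals -0.62 against -0.56. The exception among the 10 was a site 39580 bases before Csrnp1, at -0.73 (SE 0.29, edgeR adjusted p = 0.0272) and -1.23 (SE 0.30, edgeR adjusted p = 4.83e-04) by library totals, and its call was lost without any 1 of MEF2AD Control 1, Control 3 or cKO 2. In MEF2A cKO the medians of both classes lay between -0.13 and 0.04 on both scales.

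In the authors' deposited sheet on the rotarod, which lists 113 genes with a value whose scale is not stated, 10 of the 34 genes appear and hold 7 of the 10 highest values. Fosb stood first (2.15), followed by Npas4 (1.82), Fos (1.69), Nr4a3 (1.66), Nr4a2 (1.14) and Nr4a1 (1.07), and Per1 was ninth (0.790), against a median of 0.196 over the sheet. Nfil3 (0.5001), Homer1 (0.471) and Trib1 (0.374) were the others. All 10 were marked there as holding a MEF2D peak, and Fos, Nr4a1, Nr4a2, Nr4a3 and Npas4 as holding a MEF2A peak. The sheet is named for genes that MEF2 binds and the rotarod activates. Marks of a peak on its genes may thus follow from how it was made. Of these 10 genes, Fosb, Npas4, Nr4a1, Nr4a2 and Nr4a3 were also among the 10 members whose RNA followed Fos with r of at least 0.8. The fold changes that the sheet gives for each knockout were not used, since they differ from those of the RNA table and their libraries are not named.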

How the data were processed

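RNA values were deposited as log2 CPM with an offset of 0.5 reads, a form read from the values themselves. The authors' adjusted p-value and log2 fold columns are quoted as theirs, and the deposited score of the rotarod sheet has no stated scale. The H3K27ac table holds the authors' read counts per MEF2 site, per the file headers. STAR 2.6, Bowtie2 2.3.4.2, MACS2 and build mm10 stand in the submitters' processing notes with no role. Another 24 per-library columns were not used.

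The members and lists were chosen with earlier results of these data known. Values in every library are given for members called in RNA or with a called H3K27ac site in or within 5 kb, for 8 well-known members, and otherwise only where the groups do not overlap or a difference is described, which adds names chosen after their values were seen. Of 15560 entries, 91 whose identifiers repeat were dropped. The design allowed for counts, but the table is on a log scale, so RNA was tested with limma-trend (limma 3.58.1, R 4.3.3) on log2(CPM + 1) over 6 group means and 24 libraries, with Benjamini-Hochberg adjustment over 15469 genes and a threshold of 0.05. Whole reads were recovered for 100% of values (tolerance 0.05 reads), and edgeR 4.0.16 and DESeq2 1.42.0 on them were added tests. H3K27ac counts were tested with edgeR's quasi-likelihood test, TMM over the sites and its expression filter, which kept 1372 of 1419 sites, in 18 libraries. The tests were tested on simulated data with 200 changed genes, drawn with 1 setting of the spread for all genes. That setting does not cover members such as Fos, which varied more than genes of like level, and the outcome is not given here. Motifs were matched in RefSeq promoter windows of GRCm38.p6, and 14841 genes had a position there. Same-numbered MEF2A cKO and Control libraries deviated together in all 4 pairs (r between 0.20 and 0.50), and with replicate number as a block limma also called 0 members in MEF2A cKO. Labels do not say what the number marks.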

Additional observations from a re-analysis of the deposited data

Results flagged for a closer look

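In 15 of 204 groups of 4 libraries, 1 library stood apart from the other 3 by Dixon's ratio (its gap to the nearest other library over the range of the group, on log2(CPM + 1)), above the 95% critical value. Chance gives about 1 in 20 such groups. Fosl2 stood apart in MEF2A cKO 1 (ratio 0.900), at 72.2 CPM against 24.7 to 27.6 CPM in the other MEF2A cKO libraries. It did so again in MEF2A Control 1 (ratio 0.854), at 57.8 CPM against 19.99 to 23.4 CPM, and in MEF2AD cKO 1 (ratio 0.872), at 70.9 CPM against 39.6 to 42.7 CPM.

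MEF2A Control 1 was also high for the nuclear receptor genes Nr4a1 (ratio 0.82904, 161.0 CPM against 26.0 to 35.7 CPM) and Nr4a3 (ratio 0.854, 128.6 CPM against 25.5 to 32.5 CPM). It was high for Vgf (ratio 0.920, 49.5 CPM against 23.7 to 25.2 CPM) and Btg2 (ratio 0.855, 21.97 CPM against 15.5 to 16.3 CPM). MEF2A cKO 1 was high for Trib1 (ratio 0.847, 36.3 CPM against 19.5 to 21.5 CPM). In the same line, Csrnp1 was low in MEF2A Control 3 (ratio 0.881, 7.49 CPM against 10.1 to 10.5 CPM), and Gadd45g was low in MEF2A cKO 3 (ratio 0.869, 13.6 CPM against 17.8 to 18.6 CPM).

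In the MEF2D line, Ier5 was higher in cKO 1 than in the other cKO libraries (ratio 0.906, 9.65 CPM against 8.95 to 9.02 CPM), still below every MEF2D Control. Egr4 was low in MEF2D cKO 2 (ratio 0.843, 8.65 CPM against 11.2 to 11.7 CPM), and Gadd45g was high in MEF2D cKO 3 (ratio 0.848, 16.8 CPM against 15.2 to 15.4 CPM). In MEF2AD cKO, the kinase gene Sgk1 was high in library 3 (ratio 0.869, 112.7 CPM against 66.5 to 71.3 CPM), and Inhba in library 2 (ratio 0.932, 2.95 CPM against 2.53 to 2.56 CPM).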

How the results depend on the processing

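Leaving out 1 library at a time gave 0 to 0 members called in MEF2A cKO, 0 to 1 in MEF2D cKO, 0 to 2 in MEF2AD cKO and 0 to 1 in each difference between lines. It gave 0 to 0, 1 to 5 and 6 to 9 nearby H3K27ac sites called in MEF2A, MEF2D and MEF2AD cKO. Fitting only the groups compared, limma called 6 members in MEF2D cKO (Npas4 higher; Egr4, Gadd45g, Ier5, Trib1 and Vgf lower; 6.83% of all genes) and 1 in MEF2AD cKO (Gadd45b, lower; 1.35% of all genes). With a replicate block, limma called 9 in MEF2D cKO (Fosl2, Npas4 and Sik1 higher; Egr1, Egr4, Fosb, Gadd45g, Ier5 and Trib1 lower; 8.95% of all genes) and 7 in MEF2AD cKO (Egr1 and Fosl2 higher; Gadd45b, Homer1, Ier5, Jun and Trib1 lower; 4.09% of all genes). It called 2, 2 and 3 where the MEF2A effect, the MEF2D effect or their sum was subtracted from the double effect (1.26%, 0.459% and 1.16% of all genes). In these lines not every pair of same-numbered libraries deviated together (lowest r 0.06 in MEF2D and -0.20 in MEF2AD for RNA, and 0.0023 in MEF2D for H3K27ac). DESeq2 called 1 member (Egr1) after the MEF2D effect was subtracted and 1 after the sum. Counting sites within 100 kb, 8 were called in MEF2D cKO and 19 in MEF2AD cKO, and peaks within 100 kb were found at 19 members. Within cKO libraries alone, 10 members were related to Fos, against 17 in all libraries. With library totals for H3K27ac, the log2 fold of sites called on either scale turned at Nr4a3 in MEF2D cKO (-0.0234), and in MEF2AD cKO at Nfil3 (-0.0652), Nr4a2 (-0.34), Nr4a3 (-0.12), Atf3 (-0.12), Gadd45g (-0.44) and Csrnp1 (-0.10), and some sites called on neither scale also changed sign. Chosen after seeing the data, leaving out both MEF2A libraries numbered 1 gave 0 members, and leaving out both MEF2AD H3K27ac libraries numbered 3 gave 7 sites. The cause of these differences was not tested. Levels per exon length were not run.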
